A study of Mus musculus with 2 samples.

Results

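The cells described here are megakaryocyte-primed progenitors, taken from a single-cell RNA-seq study of LSK CD150+ mouse bone marrow. They were selected on 8 transcripts, Pf4, Vwf, Clec1b, Cavin2, Itgb3, Treml1, Gp5 and Tbxa2r. Cells were kept that showed 500 or more genes and had no more than 10% of their UMIs (unique molecular identifiers, which count captured transcripts) from mitochondrially encoded genes. It entered the gate with a UMI of at least 4 of the 8 genes and no UMI of Procr, a stem cell surface receptor. The gate held 4284 of 20241 kept cells (21.2%). These were 2082 of 10769 cells in the KO-labelled library and 2202 of 9472 cells in the WT library. The 8 genes and Procr chose the cells, so their values are given as a description and are read for nothing else.

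LSK CD150+ cells lack lineage markers and carry Sca-1, Kit and the receptor CD150. Mice of the Runx1F/F Mx1-Cre model gave 1 library labelled RUNX1 KO and 1 labelled RUNX1 WT, and the purpose given was a comparison of what the sorted population was made of. The floxed Runx1 allele is cut by Cre, and the Mx1 promoter that drives Cre answers to interferon in many cell types. Whether the WT mice carried the floxed allele or Cre, whether either group received an inducer of interferon, the mice's age and the number of mice per library are not given in the sources used here. With 1 library per genotype there was no test, no difference has a replicate check, and genotype and library cannot be told apart. Intervals in parentheses are 95% intervals that cover counting error only. They are exact, except that of the ratio of gated shares, which is a normal approximation on the log scale.

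There were 11398 barcodes and 120578398 UMIs in the KO-labelled library, and 9969 barcodes and 113732196 UMIs in the WT library. The filter left out 629 and 497 barcodes. The libraries shared 39 barcodes, which marked 4 KO-labelled and 2 WT gated cells, and 0 barcodes were gated in both. Runx1, the targeted gene, stood at 277 CPM (counts per 1000000 UMIs of the group of cells) in KO-labelled gated cells against 131 CPM in WT gated cells, a ratio of 2.11 (2.04 to 2.19). The higher transcript stands in the library labelled KO. The labels do not state which part of Runx1 was deleted, and 3′ tags outside it check nothing about the genotype, so each direction below is that of the library labelled KO. Of the gated cells 1728 KO-labelled and 2 WT cells were female by Xist, and 187 KO-labelled and 1714 WT cells were male by Y-linked UMIs. Sex therefore nearly coincides with the genotype label, and ratios between male cells are given below for some genes and lists only.

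Megakaryocytes are the bone marrow cells that shed platelets. Some cells inside the stem cell compartment already transcribe platelet genes such as those for von Willebrand factor and the platelet integrin, and these megakaryocyte-primed cells can enter the lineage directly. RUNX1 binds DNA together with its partner CBFB. It is needed for megakaryocyte maturation, and it is known to repress some genes of earlier or other lineages while it activates platelet genes.

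Promoters of 4 genes whose ratio between the gated cells of the libraries was among the largest are shown for orientation, Alox12 and Cd48 from the higher end and Ehd3 and Serpine2 from the lower end. They run from 250 bases before to 50 bases after the start site and come from RefSeq on GRCm38.p6, written 5′ to 3′ on the gene's strand. Alox12 lies at chr11:70255321-70255620 on the minus strand, Cd48 at chr1:171681742-171682041 on the plus strand, Ehd3 at chr17:73804591-73804890 on the plus strand and Serpine2 at chr1:79858616-79858915 on the minus strand. Capitals mark a RUNX core, TGTGGT or TGCGGT, searched on both strands.
Alox12: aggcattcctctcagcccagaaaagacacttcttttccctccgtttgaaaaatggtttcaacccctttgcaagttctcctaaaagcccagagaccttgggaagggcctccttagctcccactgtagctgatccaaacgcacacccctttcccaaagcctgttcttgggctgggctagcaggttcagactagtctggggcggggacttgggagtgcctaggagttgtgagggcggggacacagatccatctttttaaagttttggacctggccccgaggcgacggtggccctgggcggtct
Cd48: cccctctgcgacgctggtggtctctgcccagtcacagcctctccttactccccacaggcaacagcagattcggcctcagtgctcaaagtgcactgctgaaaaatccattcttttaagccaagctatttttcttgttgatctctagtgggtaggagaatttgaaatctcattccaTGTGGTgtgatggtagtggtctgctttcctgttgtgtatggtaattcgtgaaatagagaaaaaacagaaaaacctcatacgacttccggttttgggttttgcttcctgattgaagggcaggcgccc
Ehd3: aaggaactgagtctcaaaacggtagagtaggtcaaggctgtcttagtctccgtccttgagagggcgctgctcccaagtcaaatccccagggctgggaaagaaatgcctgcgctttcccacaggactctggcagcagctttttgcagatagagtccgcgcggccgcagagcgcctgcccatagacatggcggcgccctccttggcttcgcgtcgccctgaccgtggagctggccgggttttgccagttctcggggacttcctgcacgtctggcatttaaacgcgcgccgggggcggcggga
Serpine2: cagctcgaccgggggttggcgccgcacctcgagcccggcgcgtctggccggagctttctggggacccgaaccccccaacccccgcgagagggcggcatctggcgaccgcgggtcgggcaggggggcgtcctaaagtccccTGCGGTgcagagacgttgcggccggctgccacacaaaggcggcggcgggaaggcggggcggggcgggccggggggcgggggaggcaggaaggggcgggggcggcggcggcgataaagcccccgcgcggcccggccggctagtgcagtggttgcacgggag
The Cd48 promoter held the core once, starting 76 bases before the start site, and the Serpine2 promoter held it once, starting 110 bases before. No match was found in the Alox12 and Ehd3 windows. At least 1 match was found in 22.4% of all 32851 RefSeq promoters, each entry counted singly. A named gene was counted if any of its entries held the core, so this share is not a direct background for the counts that follow. Of the 12 genes highest in KO-labelled gated cells 10 matched a promoter entry by symbol and 4 of these held the core, and of the 12 lowest 11 matched an entry and 3 held the core. Thbs1 is named only. A match is a string of letters, not a bound site.

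The gate held 19.3% (18.6 to 20.1) of kept KO-labelled cells and 23.2% (22.4 to 24.1) of kept WT cells, a ratio of 0.832 (0.789 to 0.877). The order of the libraries in this share was not the same once each cell was thinned to an equal depth. Gated cells were deeper in WT, with a median of 12304 UMIs and 3404 genes in KO-labelled gated cells and 13880 UMIs and 3753 genes in WT gated cells. Other kept cells had medians of 8595 UMIs (KO-labelled) and 8764 UMIs (WT). With each cell thinned to 3000 UMIs before gating, 697 of 10678 KO-labelled cells (6.53%, 6.07 to 7.01) and 547 of 9317 WT cells (5.87%, 5.40 to 6.37) passed, so the order turned and the ratio was 1.11. Thinning also made the gate harder to pass. Depth and the unequal levels of the gate genes, given below, cannot be told apart in this turn. Among male cells, 187 of 973 KO-labelled cells (19.2%, 16.8 to 21.8) and 1714 of 6690 WT cells (25.6%, 24.6 to 26.7) passed as deposited.

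Just inside the gate, 781 KO-labelled and 748 WT cells had a UMI of 4 of the 8 genes and none of Procr. Just outside, 1280 KO-labelled and 1059 WT cells had 3 of them and no Procr UMI, and 54 KO-labelled cells (0.501%) and 117 WT cells (1.24%) had 4 or more but also a Procr UMI. All 8 genes were found in 152 KO-labelled and 154 WT gated cells. Depth went up along this scale, Procr aside, with medians of 7712 UMIs (KO-labelled) and 7550 UMIs (WT) at 0 gate genes and 16385 UMIs (KO-labelled) and 23131 UMIs (WT) at 8.

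**Figure D1:**
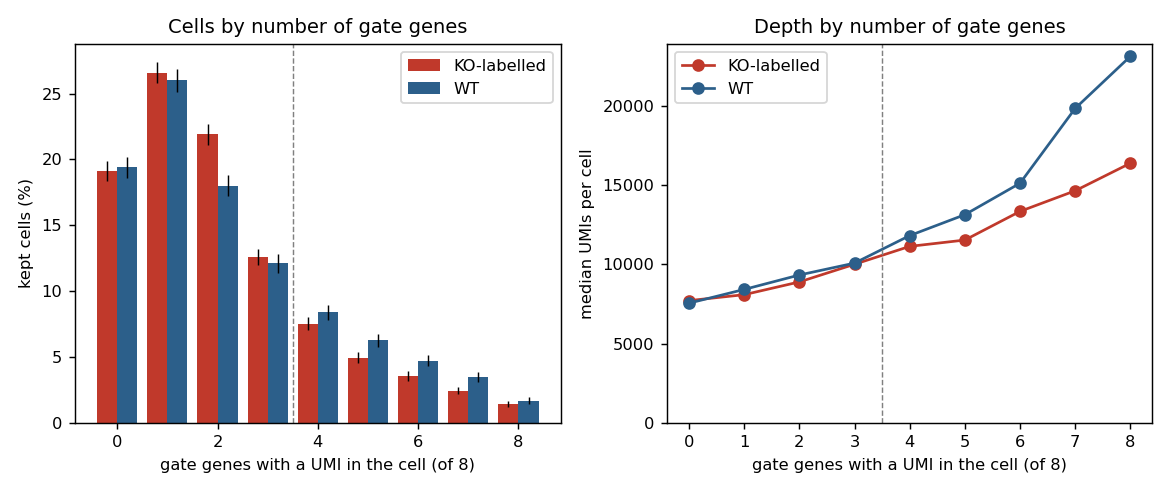
The left panel plots the share of kept cells in percent (bars, exact 95% intervals) by the number of gate genes with a UMI, Procr aside, and the right panel the median UMIs per cell. The dashed line marks the gate, to the right of which WT cells were deeper, at 23131 UMIs against 16385 UMIs in KO-labelled cells with all 8 genes.

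The gate genes themselves were unequal between the libraries. In gated cells Pf4, a platelet chemokine, stood at 1829 CPM (KO-labelled) and 4109 CPM (WT), Vwf at 51.0 CPM (KO-labelled) and 112 CPM (WT), and Tbxa2r, the thromboxane receptor, at 41.2 CPM (KO-labelled) and 65.1 CPM (WT). In the other direction Clec1b, the podoplanin receptor, stood at 115 CPM (KO-labelled) and 20.1 CPM (WT), Treml1 at 314 CPM (KO-labelled) and 118 CPM (WT), and Gp5, a subunit of the von Willebrand factor receptor, at 260 CPM (KO-labelled) and 123 CPM (WT). Cavin2 was at 278 CPM (KO-labelled) and 244 CPM (WT), and Itgb3, the platelet integrin beta chain, at 52.6 CPM (KO-labelled) and 51.3 CPM (WT). A gate on these genes therefore did not take cells in the same way from both libraries, and the part of this in the differences below was not tested. A gate on at least 2 of Cavin2, Itgb3 and Tbxa2r, again with no Procr UMI, held 10.9% of KO-labelled and 19.0% of WT cells. Each of the 24 genes named below by the size of its ratio between the libraries kept its direction and stayed past 2-fold under that gate and under the gates that left out 1 of the 8 genes. These gates share cells with the main gate, from which the genes were named, so this is not an independent check.

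Free RNA in droplets gives UMIs in cells that do not make a transcript. It was looked for in cells with a UMI of at least 4 of 5 granule genes of granulocyte-monocyte progenitors and of fewer than 4 gate genes. These granule gene cells have median depths of 16177 UMIs (KO-labelled) and 16120 UMIs (WT). After thinning, Pf4 was seen in 70.5% of KO-labelled and 85.9% of WT gated cells, and in 5.41% of KO-labelled and 11.7% of WT granule gene cells. Thbs1 was seen in 11.4% of KO-labelled and 0.864% of WT gated cells, and in 0.175% of KO-labelled and 0 of 494 WT granule gene cells. Serpine2 was seen in 4.38% of KO-labelled and 18.7% of WT gated cells, and in 0.524% of KO-labelled and 3.24% of WT granule gene cells. Without thinning, the gated shares were 24.9% (KO-labelled) and 4.18% (WT) for Thbs1 and 13.5% (KO-labelled) and 43.7% (WT) for Serpine2. For Thbs1 and Serpine2 the gated share lay above the share in granule gene cells of the same library, while Pf4 helped to choose both kinds of cell. The limit on gate genes can lower the shares in granule gene cells, so they are not a clean reading of free RNA. Its part was not tested.

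Platelet genes that the gate did not use were also higher in the gated cells. Against the other kept cells, 84 of 6204 genes that reached 20 CPM in any of the 4 cell groups were at least 2-fold higher in gated cells of both libraries (1.35%), and 143 were at least 2-fold lower (2.30%). The cells were chosen on platelet genes, so these are descriptions of the gate. Named by the smaller of the libraries' ratios, the highest were Mrvi1, Kcnj5, Pde10a, Serpine2, Slc35d3, Clu, Cdc42ep5, F2rl2, Proser2, Gucy1b1, Ache and Gnaz. Mrvi1, which encodes a substrate of cGMP-dependent kinase in platelets, stood at 23.8 CPM in gated and 0.866 CPM in other KO-labelled cells, a ratio of 27.5, and at 16.1 CPM in gated and 0.608 CPM in other WT cells, a ratio of 26.5. F2rl2, the platelet thrombin receptor PAR3, stood at 72.8 CPM in gated and 10.8 CPM in other KO-labelled cells and at 47.7 CPM in gated and 6.56 CPM in other WT cells. Both genes were several times higher in gated cells, by similar ratios in the KO-labelled and the WT library.

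Of the other genes in that group, Slc35d3, a transporter needed for platelet dense granules, was 10.2-fold (KO-labelled) and 11.6-fold (WT) higher in gated cells. Ache, acetylcholinesterase, a classic marker of rodent megakaryocytes, stood at 45.1 CPM in gated and 5.40 CPM in other KO-labelled cells, and at 36.2 CPM in gated and 6.24 CPM in other WT cells. Gnaz, the G protein subunit that couples platelet adrenergic receptors, was 6.13-fold (KO-labelled) and 5.32-fold (WT) higher. The lowest were Ctsg, Ccl9, Elane, Cd53, Mpo, Tspo2, Irf8, Tyrobp, Ctsh, Emb, Lgals1 and Car1. Ctsg, Elane and Mpo, which encode primary granule enzymes of myeloid progenitors, were at ratios of 0.110, 0.0691 and 0.139 in the KO-labelled library and 0.121, 0.134 and 0.150 in the WT library. Car1, an early red cell carbonic anhydrase, was at 0.103 (KO-labelled) and 0.183 (WT). Haemoglobin genes were left out of this naming.

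By role, 18 of 20 measured platelet receptor genes outside the gate were higher in gated than in other cells of both libraries, with median log2 ratios of 1.19 (KO-labelled) and 0.97 (WT). Here a gene counts as measured where it reached 5 CPM in any of the 4 groups. Over all 9821 measured genes the medians were 0.04 (KO-labelled) and 0.046 (WT), and 4747 were higher in both. Of the platelet signalling genes 24 of 25 were higher in both (medians 1.20 and 1.02, KO-labelled and WT), of the granule genes 16 of 20 (0.67 and 0.62) and of the cytoskeleton genes 14 of 18 (0.48 and 0.44). Rap1b, the small GTPase that activates platelet integrins, stood at 1027 CPM in KO-labelled and 845 CPM in WT gated cells, 5.26-fold and 4.66-fold over the other cells of the same library. Of transcription factor genes shared by megakaryocytes and red cells 12 of 24 were higher in both, among them Fli1 (3.27-fold KO-labelled, 2.49-fold WT) and Mef2c (3.02-fold and 2.19-fold). Gata1, the master factor of both lineages, was at 1.22 (KO-labelled) and 0.997 (WT). Klf1, the red cell factor, was at 0.195 (KO-labelled) and 0.293 (WT).

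Genes of most other cell types, though not of endothelium, were low in the gate. All 19 measured granulocyte-monocyte progenitor genes were lower in gated than in other cells of both libraries (median log2 ratios -2.70 KO-labelled and -2.39 WT), as were 20 of 24 red cell progenitor genes (-2.37 and -1.95). Of all 9821 measured genes 3299 were lower in both. A UMI of at least 4 granulocyte-monocyte genes was found after thinning in 7.56% of KO-labelled and 6.92% of WT gated cells, and in 26.0% of KO-labelled and 22.3% of WT other cells. Such cells can be doublets, which were not removed, or cells of mixed lineage, and these cannot be told apart here. The 10 neutrophil genes, all above 0 in both libraries, summed to 364 CPM in KO-labelled and 27.4 CPM in WT gated cells, and 4 KO-labelled and 1 WT gated cells had a UMI of 4 or more of its genes after thinning. The 4 measured haemoglobin genes summed to 152 CPM in KO-labelled and 39.1 CPM in WT gated cells. Their median log2 ratios between KO-labelled and WT gated cells were 5.61 for the neutrophil and 2.16 for the haemoglobin list, and between male cells -0.62 and -0.23. The male medians are over members that reached 5 CPM in male gated cells of a library, which can be other members. They rest on 187 KO-labelled male cells. Few cells held these UMIs, as 10 KO-labelled gated cells had 95.1% of those of S100a9, 96.7% of those of Camp and 79.5% of those of Hbb-bs. Without the 10 highest cells of each library the ratio of S100a9, a calcium-binding protein of neutrophils, was 1.14. The mast cell and basophil genes summed to 59.6 CPM (KO-labelled) and 59.1 CPM (WT), the monocyte and macrophage genes to 59.3 CPM (KO-labelled) and 68.1 CPM (WT), the lymphoid genes to 258 CPM (KO-labelled) and 375 CPM (WT), and the endothelial and stromal genes to 125 CPM (KO-labelled) and 113 CPM (WT). Some of these sums rested on single genes or cells. In the lymphoid sum Nkg7, which the granulocyte-monocyte list also holds, had 3379 UMIs in KO-labelled and 9663 UMIs in WT gated cells. Of the 1173 WT Ighm UMIs 1 cell held 850. In the mast cell and basophil sum Cpa3 stood at 49.0 CPM (KO-labelled) and 13.1 CPM (WT), while 1 WT cell held 702 of the 809 WT UMIs of Prg2. Cma1 and Mcpt2 of mast cells, Rag1 and Cd3e of lymphocytes and Cdh5 and Ptprb of endothelium were at 0 in gated cells of both libraries. Other members of these lists were widely seen, as Cd79b was in 873 KO-labelled and 782 WT gated cells. Egfl7 of endothelium was in 1173 KO-labelled and 1211 WT gated cells. Of 4 measured endothelial and stromal genes 2 were higher in gated than in other cells of both libraries and 2 lower. Of lymphoid genes, at least 4 were seen in 0.289% of KO-labelled and 0.227% of WT gated cells, and of endothelial and stromal genes in 0 of 2078 KO-labelled and 0 of 2198 WT gated cells. Without the 129 KO-labelled and 109 WT gated cells that had a UMI of at least 2 neutrophil genes or 4 of the 5 granule genes, each of the 24 genes named below stayed past 2-fold.

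**Figure D2:**
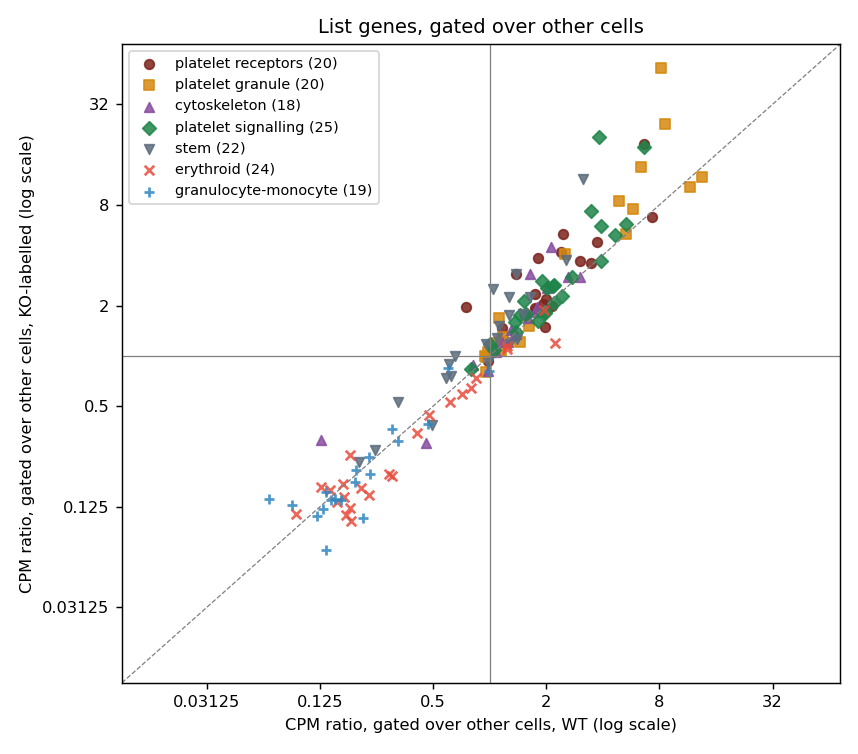
Each point is a gene of the named list, at its CPM ratio of gated over other kept cells in the KO-labelled library (vertical) and the WT library (horizontal), both on log scales, and the legend gives the number of genes. Most platelet genes lie in the upper right, and granulocyte-monocyte and most red cell genes in the lower left. Among the exceptions Flna is at 0.817 (KO-labelled) and 0.975 (WT). The dashed line marks equal ratios, and some genes lie far from it, such as Ppbp at 52.7 (KO-labelled) and 8.11 (WT).

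Between the libraries, inside the gate, 67 of the 5941 genes that reached 20 CPM in the gated cells of a library were past 2-fold in the KO-labelled direction (1.13%) and 43 past 2-fold in the WT direction (0.724%). Over these genes the median log2 ratio was -0.073. In the other kept cells 41 of 5877 genes were 2-fold or more higher in KO-labelled cells (0.698%) and 33 were 2-fold or more lower (0.562%). Of the 67 higher genes 27 were also at least 2-fold higher in the other cells, 51 were at least 1.5-fold higher there and 3 were below 1. Of the 43 lower genes 26 were also at least 2-fold lower in the other cells and 0 were above 1. Of the 67 higher genes 13 were among the 84 genes at least 2-fold higher in the gate in both libraries (1.35% of all) and 13 among the 143 at least 2-fold lower there (2.30% of all). Of the 43 lower genes 9 were among the 84 and 3 among the 143. Most of the genes named next therefore differed between the libraries outside the gate too, and 21 of the 24 did so by at least 2-fold.

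Thbs1, thrombospondin 1, an alpha-granule adhesion protein, had the highest ratio. Thbs1 (ENSMUSG00000040152, chromosome 2 from 118111876 to 118127133 on the plus strand of GRCm38) stood at 51.6 CPM in KO-labelled and 3.20 CPM in WT gated cells, a ratio of 16.1 (13.3 to 19.7). Male KO-labelled cells were at 35.1 CPM, female KO-labelled cells at 49.6 CPM and male WT cells at 3.28 CPM, so both sexes of the KO-labelled library lay above the WT cells. In the other kept cells, where both levels were low, its ratio was 5.61 (3.78 to 8.60). The 10 cells with most Thbs1 held 14.9% of its UMIs in KO-labelled and 21.2% in WT gated cells.

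Alox12, the platelet 12-lipoxygenase that oxidises arachidonic acid, came next at 21.4 CPM in KO-labelled and 1.87 CPM in WT gated cells, a ratio of 11.5 from 600 UMIs in KO-labelled and 66 UMIs in WT cells. It lies on chromosome 11 from 70241457 to 70255353. Between male cells it was at 8.65 CPM (KO-labelled) and 1.69 CPM (WT), a ratio of 5.12, and 10 cells held 29.8% of its KO-labelled UMIs. Fcgr2b, the inhibitory IgG receptor, stood at 35.3 CPM in KO-labelled and 3.22 CPM in WT gated cells, a ratio of 10.9 (9.01 to 13.4), and at 35.1 CPM and 3.24 CPM between male cells. Fcgr2b lies on chromosome 1 from 170958617 to 170976547. Its position relative to the gate was not the same in the libraries, at 1.40 times the other cells in the KO-labelled library and 0.391 times in the WT library.

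Cd48, a SLAM-family receptor that stem cell sorting protocols select against, stood at 146 CPM in KO-labelled and 32.8 CPM in WT gated cells, a ratio of 4.45 (4.17 to 4.76). Thinned shares with a Cd48 UMI were 36.3% (KO-labelled) and 9.10% (WT) in gated cells, 42.7% (KO-labelled) and 16.5% (WT) in other cells, and 37.0% (KO-labelled) and 39.9% (WT) in the granule gene cells, so the libraries were far apart inside the gate and close in the granule gene cells. The other 8 genes of the higher end were Phlda1, Gadd45g, Smim1, Otos, Cpa3, Slpi, Cdc42ep5 and Fam189b, with ratios between 3.18 and 4.09. Gadd45g, a stress and growth arrest gene, was at a ratio of 4.03 (3.70 to 4.39), with a UMI in 55.5% of KO-labelled and 24.8% of WT gated cells. Cdc42ep5, an effector of the GTPase CDC42, stood at 34.8 CPM (KO-labelled) and 9.84 CPM (WT) and was about 7 times the other cells in both libraries (7.27 and 6.91, KO-labelled and WT). Cpa3, the mast cell carboxypeptidase, stood at 49.0 CPM (KO-labelled) and 13.1 CPM (WT) in the gate and at 199 CPM (KO-labelled) and 61.6 CPM (WT) outside it.

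Ehd3, which encodes an endosome-recycling protein, had the lowest ratio. Ehd3 (ENSMUSG00000024065, chromosome 17 from 73804134 to 73832094 on the plus strand) stood at 3.82 CPM in KO-labelled and 40.5 CPM in WT gated cells, a ratio of 0.0944 (0.0768 to 0.115), or 10.6-fold lower. Male and female KO-labelled cells were at 3.19 and 3.94 CPM and male WT cells at 42.5 CPM. Ehd3 stood at 19.4 times (KO-labelled) and 9.15 times (WT) the level of the other cells. The KO-labelled value rests on 107 UMIs in gated cells and on 0.197 CPM in other cells. A UMI of Ehd3 was seen in 3.89% of KO-labelled and 34.1% of WT gated cells.

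Timp3, the metalloproteinase inhibitor stored in platelets, stood at 7.68 CPM in KO-labelled and 42.4 CPM in WT gated cells, a ratio of 0.181 (0.156 to 0.209). It lies on chromosome 10 from 86300372 to 86349506. Serpine2, the platelet protease inhibitor nexin-1, on chromosome 1 from 79794197 to 79861180, stood at 16.3 CPM in KO-labelled and 86.2 CPM in WT gated cells, a ratio of 0.189 (0.171 to 0.209). Both were many times higher inside than outside the gate in each library, at 13.5 (KO-labelled) and 6.42 (WT) for Timp3 and 11.8 (KO-labelled) and 13.5 (WT) for Serpine2. The lower end also held Bex1, Clstn3, Rcor2, Lim2, Rbpms2, Bex4, C1galt1 and Cenpv, with ratios between 0.249 and 0.336. Bex1 and Bex4 lie on the X chromosome, and between male cells their ratios were 0.375 and 0.261. C1galt1, which starts core 1 O-glycans on platelet glycoproteins, stood at 41.0 CPM (KO-labelled) and 130 CPM (WT). Rcor2, a corepressor of the CoREST family, stood at 5.93 CPM (KO-labelled) and 20.3 CPM (WT).

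All 24 named genes kept their direction between male cells, all 24 by at least 2-fold, and so did all 24 between female KO-labelled and male WT cells, which was compared only once these values had been seen. The 1728 female KO-labelled and 1714 male WT cells are most of the gated cells. The 24 genes were chosen for large ratios in these same cells, so such counts are not independent checks. The same holds for their counts under other gates, weights and sets of cells.

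**Figure D3:**
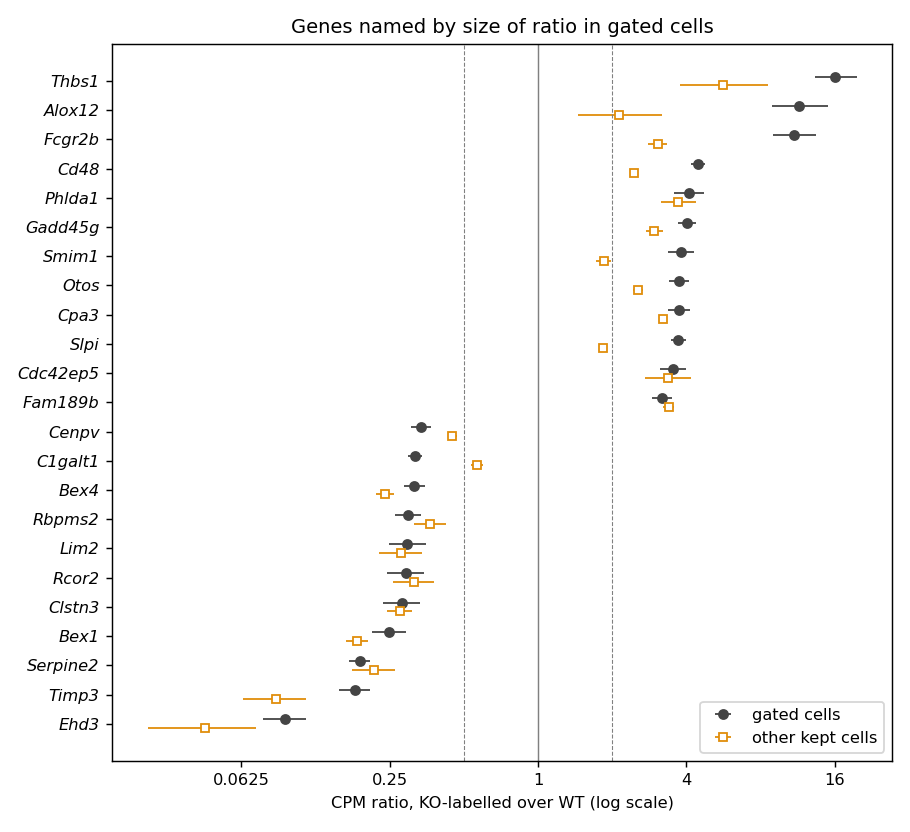
Points are CPM ratios of the KO-labelled over the WT library on a log scale, with exact 95% intervals for counting error, for the 12 highest and 11 of the 12 lowest genes in gated cells (filled) and for the same genes in other kept cells (open). Dashed lines mark 2-fold. Filled and open points lie on the same side of 1 for every gene plotted, with Thbs1 at 16.1 and Ehd3 at 0.0944 in gated cells.

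Among platelet receptors 14 of 20 measured genes, here those that reached 5 CPM in the gated cells of a library, had a ratio above 1 in KO-labelled gated cells and 6 below 1, with a median log2 ratio of 0.17. Over all 9414 genes measured in this way 3493 were above 1 and the median was -0.081. The members past 2-fold were all higher, and 4 in number. Gp9, a subunit of the GPIb-IX-V receptor for von Willebrand factor, stood at 193 CPM in KO-labelled and 87.5 CPM in WT gated cells, a ratio of 2.20 (2.11 to 2.31). Esam, a junction protein also used to mark stem cells, was at 2.34 (2.17 to 2.52), and Itga2, a collagen receptor chain, at 3.08 (2.65 to 3.59). Jam3, a junction molecule low in these cells, stood at 14.3 CPM (KO-labelled) and 1.95 CPM (WT). Outside the gate Gp9 was at 1.02 and Esam at 1.05, near 1, while Itga2 was at 1.44 (1.25 to 1.67) and Jam3 at 2.78 (2.37 to 3.28).

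The subunits of the GPIb-IX-V complex did not share 1 ratio. Gp1ba stood at 11.3 CPM (KO-labelled) and 10.5 CPM (WT), and Gp1bb at 8.79 CPM (KO-labelled) and 10.4 CPM (WT), against the 2.20 of Gp9. Itga2b, the platelet integrin alpha chain, stood at 495 CPM in KO-labelled and 344 CPM in WT gated cells, a ratio of 1.44 (1.41 to 1.48). F2r, the thrombin receptor PAR1, was at 1.57 and F2rl2 at 1.53, and P2ry1, an ADP receptor, at 1.46. Selp, P-selectin of the alpha-granule membrane, was the one receptor at least 1.5-fold lower, at 25.1 CPM (KO-labelled) and 46.0 CPM (WT), a ratio of 0.546. The tetraspanin Cd9 stood at 478 CPM (KO-labelled) and 538 CPM (WT).

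Granule genes were divided. Of 20 measured members 12 were above 1 and 8 below, with 4 members 2-fold or more up, 2 members 2-fold or more down, and a median log2 ratio of 0.057. The extremes were Thbs1 on one side and Timp3 and Serpine2 on the other. Pdgfb, platelet-derived growth factor B, stood at 20.5 CPM (KO-labelled) and 9.61 CPM (WT), a ratio of 2.13, and Slc35d3 at 44.0 CPM (KO-labelled) and 19.3 CPM (WT). Mmrn1, multimerin, stood at 48.1 CPM (KO-labelled) and 63.4 CPM (WT), and Angpt1, angiopoietin 1, at 229 CPM (KO-labelled) and 276 CPM (WT). Srgn, the proteoglycan serglycin, stood at 1203 CPM (KO-labelled) and 1012 CPM (WT).

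Ppbp, the chemokine gene beside Pf4, needs its cells named. It stood at 29.5 CPM in KO-labelled and 9.13 CPM in WT gated cells, a ratio of 3.23 (2.83 to 3.68), but 71.6% of the KO-labelled UMIs lay in 10 cells, 1 of which held 270, against 19.2% in 10 WT cells. Leaving out the 10 highest cells of each library gave 1.13. Ppbp UMIs were seen in 6.63% of KO-labelled and 9.49% of WT gated cells, and between male cells it was at 9.11 CPM (KO-labelled) and 9.32 CPM (WT). Its ratio thus rested on a few KO-labelled cells.

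Signalling genes were mostly higher in KO-labelled gated cells, with 21 of 25 above 1, of which 2 were past 2-fold, 0 past 2-fold the other way, and a median log2 ratio of 0.28. After thinning, 95.8% of KO-labelled and 91.1% of WT gated cells had a UMI of at least 4 of them. Rgs10, which shortens G protein signals in platelets, stood at 238 CPM (KO-labelled) and 132 CPM (WT), a ratio of 1.80 (1.74 to 1.87), and Rgs18, of the same family, at 461 CPM (KO-labelled) and 316 CPM (WT). Fermt3, the integrin activator kindlin 3, was at 1.29 and Lat, an adaptor of the collagen receptor pathway, at 1.40. The chains of soluble guanylate cyclase, the nitric oxide receptor of platelets, went opposite ways. Gucy1b1 stood at 42.2 CPM in KO-labelled and 19.1 CPM in WT gated cells, a ratio of 2.21 (2.01 to 2.43). Gucy1a1 stood at 42.9 CPM in KO-labelled and 61.0 CPM in WT gated cells, a ratio of 0.703 (0.654 to 0.755). Each direction held in cells with 4, 5, 6, 7 and 8 gate genes alike, and between male cells (2.23 and 0.813).

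Of the cytoskeleton genes 11 of 16 were below 1, beside 5921 of 9414 genes in all. Their median log2 ratio was -0.18, 2 were past 2-fold below 1 and 0 past 2-fold above it. Actn1, alpha-actinin 1, a gene of inherited low platelet counts, stood at 8.29 CPM (KO-labelled) and 21.4 CPM (WT), a ratio of 0.388 (0.333 to 0.450). Flna, filamin A, stood at 39.3 CPM (KO-labelled) and 81.3 CPM (WT), a ratio of 0.483 (0.451 to 0.518). Myh9, non-muscle myosin of platelets, stood at 145 CPM (KO-labelled) and 189 CPM (WT). Tpm4, a tropomyosin of platelet formation, was the highest named member at 1.46 (1.34 to 1.59). Myh10, a myosin gene that RUNX1 is known to repress as megakaryocytes mature, was under the minimum, at 2.18 CPM (KO-labelled) and 4.78 CPM (WT).

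Transcription factor genes of the lineage differed little, with 10 of 24 above 1, 1 past 2-fold and a median log2 ratio of -0.078. Of all 9414 measured genes 3493 were above 1. Lyl1, a partner of LMO2, was the exception at 154 CPM in KO-labelled and 55.1 CPM in WT gated cells, a ratio of 2.80 (2.65 to 2.95). Gata1 and Gfi1b were both at 1.38, Gata2 at 1.01, Fli1 at 1.11 and Tal1 at 0.960. In the RUNX family Runx2 was at 1.74 (1.58 to 1.92) and Runx3 at 1.24 (1.19 to 1.30). Cbfb, the partner subunit, stood at 34.3 CPM (KO-labelled) and 43.8 CPM (WT), a ratio of 0.783 (0.722 to 0.849). Runx1 itself was higher in KO-labelled cells at each of 4, 5, 6, 7 and 8 gate genes, at 344 CPM (KO-labelled) and 147 CPM (WT) with all 8.

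Stem cell genes were divided inside the gate, with 8 of 21 above 1 and 13 below, 2 at least 2-fold each way, and a median log2 ratio of -0.22. Of all 9414 measured genes 3493 were above 1 and 5921 below, so the stem cell count lay near the share of all genes. Mecom, the stem cell factor EVI1, stood at 17.5 CPM in KO-labelled and 41.5 CPM in WT gated cells, a ratio of 0.423 (0.381 to 0.469). Aldh1a1, a retinaldehyde dehydrogenase, was at 0.427, but at 0.795 between male cells. Slamf1, which encodes the sort antigen CD150, stood at 42.6 CPM in KO-labelled and 20.3 CPM in WT gated cells, and the interval of its ratio ran from 1.91 to 2.30. It was 1.76 times (KO-labelled) and 1.26 times (WT) the level in other cells. Among cytokine receptors 12 of 23 were above 1, with a median log2 ratio of 0.095, and 5 were at least 2-fold higher. Csf2rb, the shared beta chain of the interleukin 3 and GM-CSF receptors, stood at 18.5 CPM (KO-labelled) and 3.37 CPM (WT), and Csf3r, the G-CSF receptor, at 12.6 CPM (KO-labelled) and 3.31 CPM (WT). Kit, the stem cell factor receptor, stood at 100 CPM (KO-labelled) and 118 CPM (WT).

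Granulocyte-monocyte and red cell progenitor genes had median log2 ratios of 0.16 and -0.24 between KO-labelled and WT gated cells, with 11 of 14 and 6 of 15 members above 1. Of all 9414 measured genes 3493 were above 1. Car1 was the one red cell member at least 2-fold lower, at 51.4 CPM (KO-labelled) and 122 CPM (WT), a ratio of 0.422. Between male cells Car1 stood at 8.65 CPM (KO-labelled) and 137 CPM (WT), a ratio of 0.0632, and 10 KO-labelled cells held 60.5% of its UMIs. Between male cells the granulocyte-monocyte median was -1.01, against 0.16 over all gated cells, so its direction was not the same in male cells.

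Levels of several of these genes moved with the number of gate genes that a cell showed. In KO-labelled cells Thbs1 was at 17.3, 30.1, 58.1, 86.3 and 162 CPM with 4, 5, 6, 7 and 8 gate genes, and in WT cells at 1.43, 2.76, 4.50, 4.39 and 4.11 CPM. Thbs1 thus went up steeply with the number of gate genes in KO-labelled cells and stayed under 5 CPM in WT cells. Alox12 in KO-labelled cells was at 6.91, 8.85, 17.2, 34.5 and 94.2 CPM, and in WT cells it lay between 0.919 CPM with 4 and 5.14 CPM with 8. Serpine2 in KO-labelled cells was at 4.46, 10.2, 17.6, 31.3 and 48.8 CPM, and in WT cells at 23.4, 46.7, 84.3, 142 and 234 CPM. Serpine2 went up along the gate in both libraries, at a lower level in KO-labelled cells at each step.

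Ehd3 behaved like Serpine2, at 12.3 CPM (KO-labelled) and 88.9 CPM (WT) with all 8 genes and at 1.06 CPM (KO-labelled) and 13.3 CPM (WT) with 4. Fcgr2b was at 31.9 CPM in KO-labelled cells with 4 gate genes and no lower at any further step, and it lay between 2.96 and 3.60 CPM in WT cells across the gate. It went down along the scale in WT cells, which were at 17.0 CPM with 0 gate genes. Cd48 went down in both libraries, with 117 CPM in KO-labelled and 34.2 CPM in WT cells at 8 gate genes and 203 CPM (KO-labelled) and 120 CPM (WT) at 0. Kit was lower towards the end of the gate, at 53.8 CPM (KO-labelled) and 68.3 CPM (WT) with 8 genes and 139 CPM (KO-labelled) and 156 CPM (WT) with 4. Mecom at 8 genes was at 7.30 CPM (KO-labelled) and 22.9 CPM (WT). Slamf1 at 8 genes was at 53.0 CPM in KO-labelled and 15.4 CPM in WT cells, and at 4 genes at 38.5 CPM (KO-labelled) and 25.3 CPM (WT). The libraries thus stood further apart in Slamf1 at the far end of the gate than at its start.

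The summed receptor list outside the gate stood at 1373 CPM (KO-labelled) and 1123 CPM (WT) with 4 gate genes and at 3450 CPM (KO-labelled) and 2465 CPM (WT) with 8. The summed cytoskeleton list was 5488 CPM (KO-labelled) and 6530 CPM (WT) with 4 gate genes and 14683 CPM (KO-labelled) and 14233 CPM (WT) with 8. The number of gate genes seen also follows a cell's depth, given above, and the part of depth in these trends was not tested. With equal weight for the 5 steps of the gate, a setting chosen once the values were known, the 24 named genes all kept their direction and stayed past 2-fold.

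**Figure D4:**
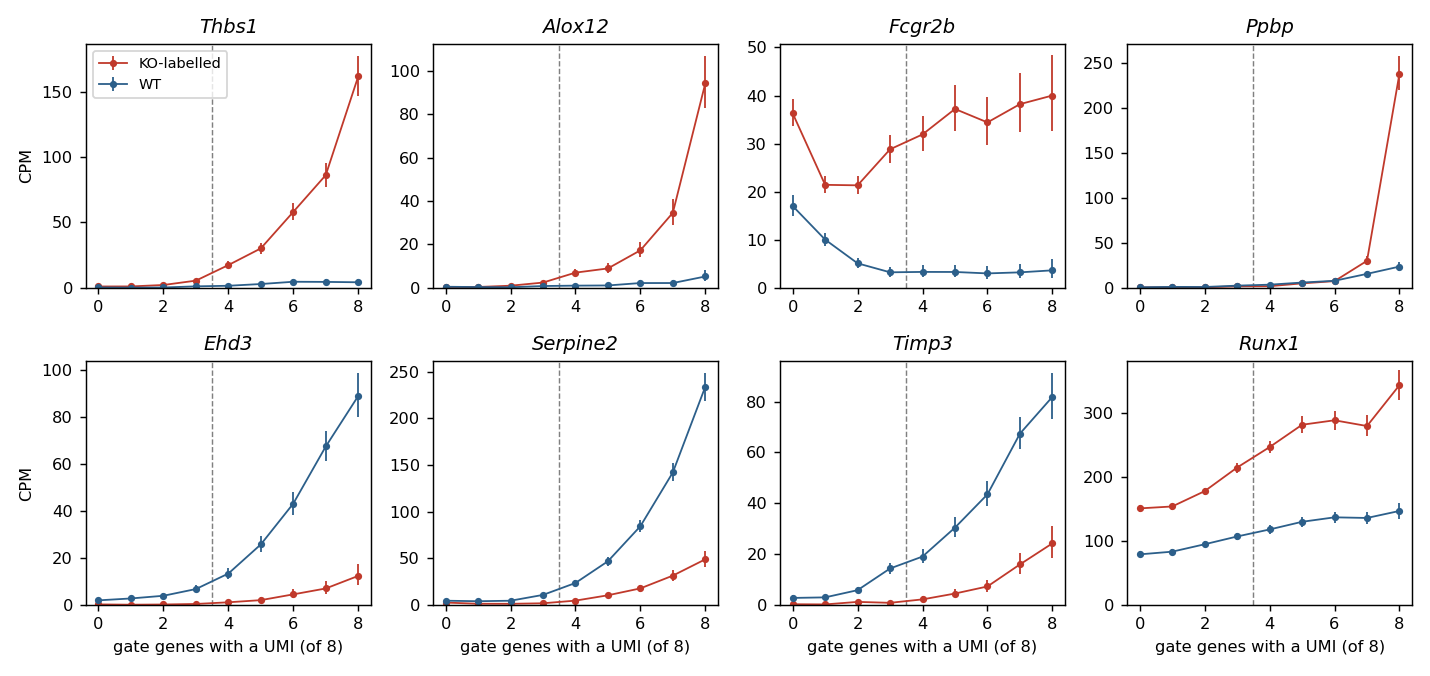
Points are CPM, with exact 95% intervals for counting error, in cells without Procr grouped by the number of gate genes with a UMI, in KO-labelled and WT cells. The dashed line marks the gate. Thbs1 reached 162 CPM in KO-labelled and 4.11 CPM in WT cells with all 8 genes, Serpine2 48.8 CPM in KO-labelled and 234 CPM in WT cells, and the Ppbp point at 238 CPM rests on few cells.

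Cell cycle genes were seen in fewer KO-labelled than WT gated cells. After thinning, 69.1% (67.0 to 71.0) of KO-labelled and 83.7% (82.1 to 85.2) of WT gated cells had a UMI of at least 4 of 27 S phase genes, and 92.7% (KO-labelled) and 99.0% (WT) without thinning. For at least 4 of 26 G2 and M phase genes the thinned shares were 42.0% (39.8 to 44.1) in KO-labelled and 56.5% (54.4 to 58.5) in WT gated cells, and the unthinned shares 58.9% (KO-labelled) and 77.0% (WT). In other cells these thinned shares were 51.7% (KO-labelled) and 67.9% (WT) for S phase and 32.5% (KO-labelled) and 38.9% (WT) for G2 and M phase. In both libraries gated cells were thus above the pooled other cells, and the WT cells above the KO-labelled cells. The granule gene cells, which lie outside the gate, were at 71.4% (KO-labelled) and 83.6% (WT) for S phase. For G2 and M phase they were at 50.4% (KO-labelled) and 57.3% (WT). Shares of this size were therefore not particular to the gate. The gate was applied before thinning and held deeper cells, and the part of depth in these shares was not tested. Mki67, the proliferation marker, was seen after thinning in 41.3% of KO-labelled and 55.6% of WT gated cells.

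By level the differences were smaller. Of the S phase genes 23 of 27 were below 1 between KO-labelled and WT gated cells, with a median log2 ratio of -0.19, and of the G2 and M phase genes 21 of 26, with a median of -0.10, beside -0.081 for all genes. Between male cells the G2 and M phase median was -0.39, beside -0.078 for all genes, and as a mean over cells it was -0.24. Mki67 stood at 482 CPM (KO-labelled) and 539 CPM (WT), and E2f8, an S phase repressor, at 43.5 CPM (KO-labelled) and 67.1 CPM (WT), a ratio of 0.647 (0.604 to 0.694). Ckap2l, a spindle protein, was the one member past 2-fold, at 65.9 CPM (KO-labelled) and 143 CPM (WT), a ratio of 0.460 (0.436 to 0.485), with 0.822 outside the gate.

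Of the G1 cyclins and kinases 7 of 10 were below 1, beside 5921 of 9414 genes in all, with a median log2 ratio of -0.32. Ccnd1, cyclin D1, stood at 31.6 CPM (KO-labelled) and 58.0 CPM (WT), a ratio of 0.545 (0.503 to 0.590), and 0.750 between male cells. Ccnd2 was at 0.653 and Cdk6, a kinase that megakaryocytes lower as they mature, at 0.722. Of the cell cycle inhibitor and quiescence genes 12 of 14 were above 1, with a median log2 ratio of 0.26, and 1 was past 2-fold. Cdkn2c, the inhibitor p18, stood at 66.4 CPM in KO-labelled and 37.7 CPM in WT gated cells, a ratio of 1.76 (1.64 to 1.89), and Rgs1 at 131 CPM (KO-labelled) and 69.6 CPM (WT). In gated cells without a UMI of Mki67 or Top2a the S phase median was -0.71, and the 24 named genes all stayed past 2-fold.

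**Figure D5:**
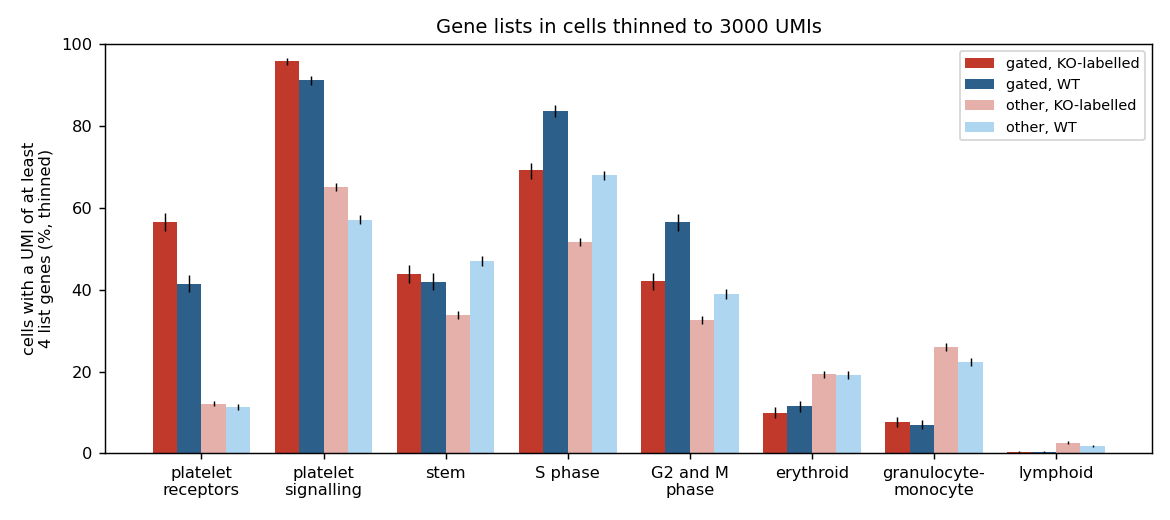
Bars are the percent of cells, thinned to 3000 UMIs each, with a UMI of at least 4 genes of a list, with exact 95% binomial intervals, for gated and other cells of the KO-labelled and the WT library. In gated cells S phase genes were at 69.1% (KO-labelled) and 83.7% (WT), and platelet receptor genes at 56.5% (KO-labelled) and 41.4% (WT).

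Stress-linked lists were measured because they move with handling. Of the immediate early genes 9 of 12 were above 1, with a median log2 ratio of 0.35, led by Fosb at 68.6 CPM (KO-labelled) and 26.9 CPM (WT) and Fos at 43.8 CPM (KO-labelled) and 21.7 CPM (WT). Outside the gate their ratios were 1.94 and 1.79. Of the heat shock genes 7 of 9 were below 1, beside 5921 of 9414 genes in all, with a median of -0.40. Hsp90aa1 stood at 1185 CPM (KO-labelled) and 1568 CPM (WT). Of the interferon-stimulated genes 13 of 23 were above 1, with a median log2 ratio of 0.096 and 0 past 2-fold either way. The median mitochondrial share per gated cell was 4.18% (KO-labelled) and 4.72% (WT), and 78 of 85 ribosomal protein genes were above 1 with a median log2 ratio of 0.13. The part of handling in the differences between the libraries was not tested.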

How the data were processed

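LSK CD150+ bone marrow cells were profiled with the 10x Genomics 3′ v2 kit, per the labels' protocols. The deposited values are raw UMI counts per gene and cell barcode, which the authors made with Cell Ranger 2.1.1 on mm10, per the submitters' processing notes. The version in the file headers is 3.1.0. The 2 matrices hold 1 library per genotype, so ratios carry no replicate error, and exact conditional binomial, Poisson and Clopper-Pearson intervals cover counting error only.

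Kept cells had at least 500 genes and at most 10% mitochondrial UMIs. Doublets were not removed. UMIs were summed over the cells of a group and divided by their total (CPM). For shares, each cell was thinned to 3000 UMIs, leaving out shallower cells. Cells were male with a UMI of any of 4 Y-linked genes and no Xist UMI, and female with 2 or more Xist UMIs and no UMI of these Y-linked genes. The gate, gene lists and comparisons were chosen with earlier results of these data known. Genes named between the libraries had the 12 highest and the 12 lowest ratios of those that reached 20 CPM in a library's gated cells with a UMI in 10% of cells where higher, leaving out gate, ribosomal, mitochondrial, haemoglobin, Y-linked and unnamed genes, Xist and Tsix. Those named against other cells were the 12 highest and 12 lowest by whichever library's ratio was nearer to 1. Other genes come from the lists, and examples among them were picked after their values were seen. Values of 3 genes are not reported here.

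Scripts were tested on simulated data and run in Python 3.11.15 with numpy 2.4.6, scipy 1.17.1, pandas 2.3.3 and matplotlib 3.10.9. edgeR 4.0.16 gave TMM factors for 1 alternative. Gene positions come from GENCODE M21 on GRCm38, and promoters from RefSeq on GRCm38.p6. The alternatives changed the gate, the cell filter, the depth, the sex of cells, the scaling and the thresholds.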

Additional observations from a re-analysis of the deposited data

Results flagged for a closer look

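Among genes that reached 20 CPM in gated cells, Ppbp and Clu were at least 1.5-fold apart between the libraries inside the gate and at least 1.5-fold apart the opposite way outside it. Smaller reversals are not counted here, such as that of Gucy1b1, with 2.21 inside and 0.824 outside. The difference between the gates was not tested, since each genotype had 1 library. Ppbp, a platelet chemokine gene, had a KO-labelled over WT ratio of 3.23 (2.83 to 3.68) in gated cells and 0.496 (0.344 to 0.709) in other cells. In gated cells 71.6% of the KO-labelled Ppbp UMIs lay in 10 cells, and the ratio between male gated cells was 0.977 (0.587 to 1.54). Clu, clusterin, an alpha-granule chaperone, had a ratio of 1.57 (1.41 to 1.74) in gated cells and 0.298 (0.220 to 0.399) in other cells. It stood at 29.6 CPM in KO-labelled and 18.9 CPM in WT gated cells, and at 0.690 CPM in KO-labelled and 2.32 CPM in WT other cells. The 10 highest cells held 25.8% of the KO-labelled and 9.73% of the WT gated Clu UMIs, and the ratio without them was 1.29.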

How the results depend on the processing

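No paired analysis was possible because each genotype had 1 library, and for the same reason no replicate could be left out. The ratio of gated shares, 0.832, was 0.907 with at least 3 gate genes, 0.787 with at least 5, and 0.575 with at least 2 of Cavin2, Itgb3 and Tbxa2r. It was 0.901 without Vwf, 0.660 without Treml1, 0.716 without Gp5, 0.903 without Tbxa2r, 0.717 under the stricter cell filter and 0.750 between male cells, and it turned to 1.11 with the gate applied at 3000 UMIs. The 67 genes higher between the libraries became 104 with totals without ribosomal and mitochondrial genes, 106 in cells without Mki67 and Top2a UMIs, 114 at 10 CPM, 33 at 50 CPM, 155 at 1.5-fold and 28 at 3-fold. The 43 lower genes became 70 between male cells, 95 in cells without Mki67 and Top2a UMIs, 70 at 10 CPM, 14 at 50 CPM, 167 at 1.5-fold and 15 at 3-fold. Against other cells, the 84 higher genes became 41 at 50 CPM, 194 at 1.5-fold, 38 at 3-fold, 38 with 4 or 5 gate genes and 146 with 6 to 8. The 143 lower genes became 240 at 10 CPM, 73 at 50 CPM, 262 at 1.5-fold and 74 at 3-fold. The haemoglobin list's median log2 ratio of 2.16 turned to -0.75 with the gate at 3000 UMIs, -0.23 between male cells and -0.097 with 6 to 8 gate genes, and the neutrophil median of 5.61 turned to -0.62 between male cells. The granulocyte-monocyte median of 0.16 was 0.75 with the gate at 3000 UMIs and -1.01 between male cells. The S phase median of -0.19 was -0.31 between male cells, -0.29 as a mean over cells, -0.71 in cells without Mki67 and Top2a UMIs and -0.33 with 4 or 5 gate genes. The G2 and M phase median of -0.10 was -0.043 under the gate of Cavin2, Itgb3 and Tbxa2r, -0.39 between male cells, -0.026 with TMM, -0.054 with totals without ribosomal and mitochondrial genes, -0.24 as a mean over cells, -0.024 without Mki67 and Top2a UMIs and -0.048 with equal weights. Ppbp's log2 ratio turned to -0.034 between male cells and -0.59 with 4 or 5 gate genes. TMM moved all log2 ratios by 0.076. Other causes of these changes were not tested. Depth limits shares of rare transcripts, and male KO-labelled gated cells numbered 187.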
